A study of Zea mays with 6 samples.

Results

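The genes described here encode the histones, the core types H2A, H2B, H3 and H4 and the linker type H1. They were taken as every gene of the deposited tables whose description names one of these types, leaving out the enzymes that methylate, demethylate or acetylate histones, which gave 88 of the 39179 genes listed. Of the 88 genes 5 were described as H1, 36 as H2A, 11 as H2B, 19 as H3 and 17 as H4. The libraries came from maize endosperm, the storage tissue of the kernel, harvested 20 days after pollination. Wild type was the inbred line B73. The nacRNAi line, labelled Ni4, consisted of siblings in the same inbred that carry an RNA interference construct, a transgene that lowers transcripts matching its sequence. The labels do not give the promoter that drives the construct, nor whether Ni4 rests on a single transformation event. Each line had 3 libraries, made with an mRNA kit. Whether the libraries of each line stem from different plants or ears is not stated, so all p-values measure the spread between these samples only, which may be technical.

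In the nucleus DNA is wound around an octamer of H2A, H2B, H3 and H4, the nucleosome, and H1 binds the DNA between nucleosomes. Most histone protein is made while DNA is copied, from small multigene families whose members encode nearly identical proteins, whereas variant histones such as H2A.X, which marks broken DNA, or the centromeric H3, on which kinetochores assemble, are supplied for particular places or times. Plant histone messengers carry poly(A) tails and are therefore captured by mRNA kits. In maize endosperm cell division slows as the kernel fills and the cells then copy their DNA without dividing, while storage proteins accumulate.

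Totals ran from 55812999 to 69670876 counts per library, and values below are CPM, counts set relative to the library total and scaled by TMM, a method that sets the bulk of genes equal between libraries, unless another unit is named. For a gene at 0 the limit is 3 counts (0.0362 to 0.0625 CPM), for counting error only. The endosperm transcription factor gene NAC130, a target of the construct from knowledge of the study and not from the labels, was at 1337, 1335 and 1055 CPM in wild type and 238, 227 and 222 CPM in nacRNAi. The other known target, NAC128, was at 309, 359 and 272 CPM in wild type and 248, 299.8 and 284 CPM in nacRNAi, for a log2 change of -0.18 (adjusted p = 0.245 in edgeR), but 0.35 with library totals (adjusted p = 0.0168 in edgeR). Zein genes, the defining markers of starchy endosperm, held 35.4% to 37.2% of all counts in the wild-type libraries but 22.0% to 22.8% in nacRNAi. On the TMM scale 17 of 18 fell, beside 24% of all genes tested, and with library totals 13 of 18 fell, beside 9%. The choice of scale decides many directions here, so 4 scales are set side by side where they differ. In these bulk samples fewer cells of a type and less RNA per cell cannot be told apart.

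Of the 88 histone genes 69 passed the filter on low counts and were tested. On the TMM scale 28 of the 69 (40.6%) were lower in nacRNAi and 4 (5.80%) were higher (adjusted p under 0.05 in edgeR's quasi-likelihood test, with Benjamini-Hochberg adjustment), where 24% of all 22259 genes tested were lower and 23.2% higher. The median log2 fold change of the histone genes was -0.44 against 0.00 for all genes, and 54 of 69 lay below 0, but scaled by library totals the median was 0.065 and on log2(FPKM + 1) it was 0.41. Changes were small for most members. A change of at least 2-fold passed for 2 lower and 2 higher members, shares of the 69 to be set beside 8.94% and 8.7% of all genes tested. In 34 members every nacRNAi library lay below every wild-type library and in 5 every one lay above, which held for 29.5% and 29.6% of all genes tested. For such a gene the exact two-sided permutation p is 0.1, the smallest that 3 against 3 libraries allow.

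**Figure D1:**
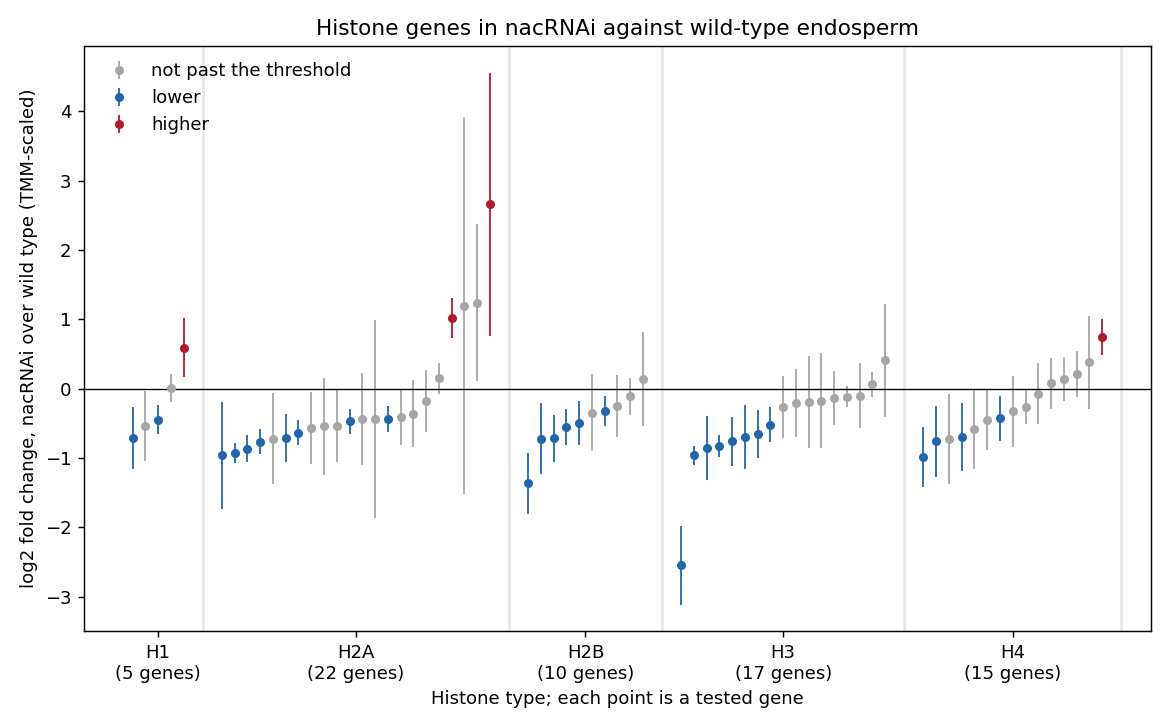
The log2 fold change of nacRNAi over wild type on the TMM scale (y axis) is drawn for each of the 69 tested histone genes, grouped by type on the x axis and sorted within a type, with 95% intervals as lines. Blue points passed the test as lower (28 genes), red points as higher (4 genes) and grey points did not pass. The medians of the types run from -0.45 in H2A to -0.27 in H3, and all 5 are above 0 when counts are scaled by library totals.

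The calls differed between scales, and each scale has its own background. With library totals 14 members were higher and 7 lower, where 50.5% and 9% of all genes were, and the median gene shifted by 0.52. The DESeq2 Wald test gave 4 higher and 35 lower members, where 23.9% and 25.3% of all genes were. On the FPKM values deposited by the authors, which are set per gene length, 23 of 66 members were higher and 3 lower (limma on log2(FPKM + 1)), where 63.5% and 7.45% of all genes were. The ratio of count to FPKM, set relative to the median gene, served as a stand-in for gene length. It is not a length for every gene, since FPKM was not a fixed multiple of these counts. It was 109% for the H1/H5-domain gene, whose model spans 825 bases, and 32.6% for H1-3, which spans 1007. The median ratio of the histone genes was 31.1% of that of the median tested gene, and 57 of the 67 members with a ratio fell in the lowest 2 deciles of all genes. In those 2 deciles 33.0% of the 4375 other genes were lower and 14.0% higher on the TMM scale, with a median of -0.33, beside 40.4% lower and 3.51% higher among the 57 histone genes, with a median of -0.44. With the trend of expression against this ratio removed, called the length trend here, 13 of 67 members were lower and 7 higher, where 22.6% and 21.6% of all genes were, and the median was -0.11. Of the 28 members called lower with TMM, 7 were also called lower with library totals, 13 with the length trend removed and 3 on FPKM, and 4 were called higher on FPKM. Of the 37 tested members not called with TMM, 17 were called higher on at least 1 of the other 3 scales and 4 on all 3.

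**Figure D2:**
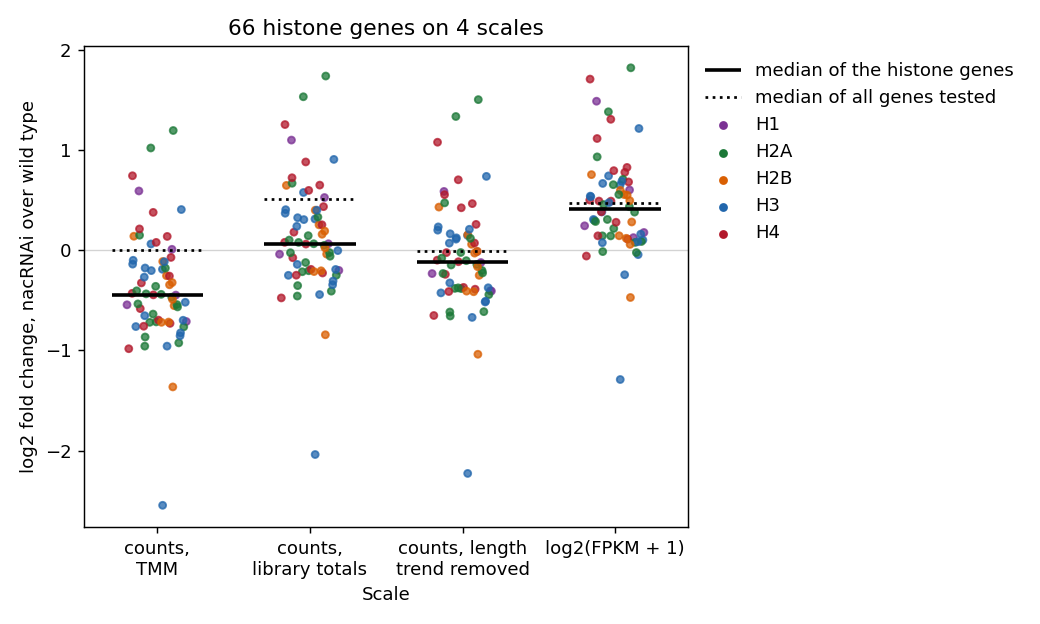
Each point is a histone gene (66 genes with a value on every scale, coloured by type), and its height is the log2 fold change of nacRNAi over wild type on the scale named on the x axis. The thick line, the median of the histone genes, lies below the dotted median of all genes on each scale, at -0.44, 0.065, -0.12 and 0.41, and crosses 0 between scales.

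A few members kept their call on all 4 scales. They were 3 higher genes, an H1, an H2A and an H4, and 3 lower genes, a pair of H3 and an H2B, each 4.55% of the 66 members with a value on every scale, where 19.7% and 6.51% of all genes were called higher and lower on all 4. These 6 genes are described first within their types below.

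Wild-type replicate 3 stood apart in the histone genes. It held the highest of the 3 wild-type values in 57 of 69 members (82.6%), while it did so in 33.8% of all genes tested. The median ratio of replicate 3 to the mean of replicates 1 and 2 was 1.36 for histone genes and 0.994 for all genes. Among members whose gene model spans at most 1000 bases, replicate 3 was highest in 41 of 45 with a median ratio of 1.45, against 16 of 24 and 1.11 in longer ones. Other genes of low count to FPKM ratio did not share this, since replicate 3 was highest in 34.6% of the 4375 other genes in the lowest 2 deciles, with a median ratio of 0.993. Listed DNA replication genes were highest in replicate 3 in 43 of 63 cases, histone chaperone genes in 15 of 20, cell cycle genes in 18 of 33, chromatin remodelling genes in 16 of 39 and histone-modifying enzyme genes in 25 of 73. Without replicate 3, 26 members were lower and 7 higher, where 21% and 20.6% of all genes were, and the median of the same 69 members was -0.24. Of the 28 members called lower with all libraries 25 were called lower without it, and all 4 called higher were called higher. Among the nacRNAi libraries, replicate 1 held the highest value in 45 of 69 members (65.2%), and in 36.0% of all genes tested.

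**Figure D3:**
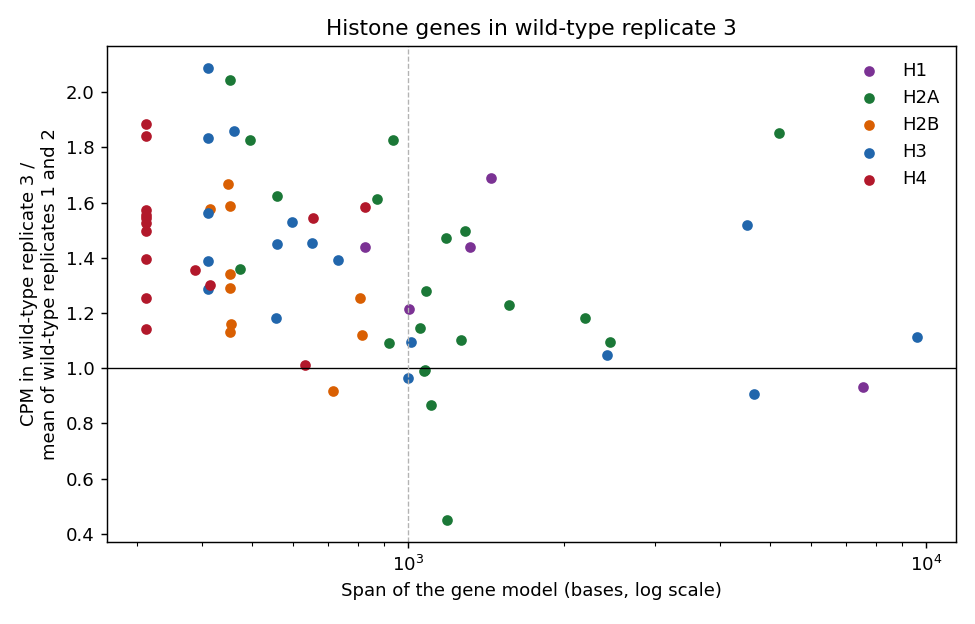
The ratio of CPM in wild-type replicate 3 to the mean of wild-type replicates 1 and 2 (y axis) is plotted against the span of the gene model in bases (x axis, log scale) for the tested histone genes, coloured by type. The dashed line marks 1000 bases, points above the solid line are higher in replicate 3, and 2 H2A genes with 0 counts in that library are not drawn.

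All 5 linker histone H1 genes were tested, and 2 fell (40%) and 1 rose (20%), where 24% and 23.2% of all genes tested did. Their median log2 change was -0.45, and 0.065 with library totals. The gene that rose was Zm00001d045478, described as an H1 with an H1/H5 domain, the globular fold by which linker histones bind nucleosomes (chromosome 9, 23695040 to 23695864). It was at 42.6, 49.8 and 66.5 CPM in wild type and 78.5, 90.3 and 70.8 CPM in nacRNAi. Every nacRNAi library was above every wild-type library. It rose 1.51-fold, with a log2 fold change of 0.59 (SE 0.18, adjusted p = 0.0311 in edgeR), and it was called on all 4 scales, though in only 2 of the 6 fits that leave out a library. The gene with the highest H1 level per length was H1-3 (Zm00001d002601, chromosome 2, 16461905 to 16462911), at 284 ± 36.6 FPKM in wild type against 308 ± 1.97 FPKM in nacRNAi (SD, n = 3). Its scaled counts were 234, 257 and 298 CPM in wild type and 194, 197 and 188 CPM in nacRNAi, lower in every nacRNAi library than in any of wild type. For H1-3 the log2 change was -0.45 (SE 0.09, adjusted p = 0.00476 in edgeR), but 0.065 with library totals and 0.13 on log2(FPKM + 1). Within the H1 counts, a measure that no scaling of libraries touches, H1-3 took 66.5% ± 1.86 in wild type against 58.4% ± 1.37 in nacRNAi (SD, n = 3). The H1/H5-domain gene took 12.5, 12.9 and 14.4% of H1 counts in the wild-type libraries and 23.6, 26.1 and 22.5% across nacRNAi libraries, so its part of the H1 pool was larger in each nacRNAi library.

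A pair of genes described as H1 with no further name lies on chromosome 5, 60909 bases apart. The more abundant in counts, Zm00001d013067, was at 38.4, 52.8 and 65.7 CPM in wild type and 33.5, 31.1 and 31.2 CPM in nacRNAi. Its lines did not overlap, and its log2 fold change was -0.71 (SE 0.18, adjusted p = 0.0187 in edgeR), a call kept in 2 of 6 fits that leave out a library. The neighbour Zm00001d013066 had a log2 fold change of -0.54 (95% interval -1.05 to -0.04, adjusted p = 0.0732 in edgeR). The MYB-domain H1 gene (Zm00001d011252), from the plant family in which an H1-like globular region is joined to a MYB DNA-binding domain, averaged 20.3 ± 1.05 CPM in wild type against 20.4 ± 1.68 CPM in nacRNAi (SD, n = 3). Its log2 fold change was 0.01 (95% interval -0.20 to 0.22, adjusted p = 0.938 in edgeR). For this gene too the scale mattered, with 0.53 with library totals (adjusted p = 0.000929 in edgeR) and 0.60 on log2(FPKM + 1) (adjusted p = 0.000390 in limma).

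H2A, which with H2B forms the outer dimers of the nucleosome, was the largest family, and 22 of its 36 genes were tested. Of these 8 fell (36.4%, beside 24% of all genes tested) and 2 rose (9.09%, beside 23.2%). The median log2 change was -0.45, and 0.054 with library totals. The rise that held on all 4 scales was Zm00001d007567 (chromosome 2, 235018108 to 235019675), a minor H2A gene with 0.530% of the H2A counts in wild type and 1.56% in nacRNAi. Its values were 5.37, 4.73 and 6.21 CPM in wild type and 11.2, 11.0 and 10.8 CPM in nacRNAi. The nacRNAi libraries lay close together and all above wild type. The log2 fold change was 1.02 (SE 0.13, adjusted p = 0.000427 in edgeR), a 2.03-fold rise that was called in all 6 fits that leave out a library. The other rise, Zm00001d035617 on chromosome 6, rested on 3, 5 and 0 counts in wild type and 33, 21 and 25 counts in nacRNAi, near the limit of detection, and the authors' FPKM is listed at 0 in all 6 libraries. Its fitted log2 fold change of 2.66 (SE 0.82, adjusted p = 0.0293 in edgeR) depends on the small count the fit adds and is no bound.

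Among the falls on the TMM scale the clearest against the spread of the libraries was Zm00001d038381 (chromosome 6, 155954300 to 155955375), at 76.5, 82.7 and 78.9 CPM in wild type and 42.5, 43.3 and 39.7 CPM in nacRNAi. Every nacRNAi library was far below the lowest of wild type, and wild-type replicate 3 did not stand out. It fell 1.90-fold, with a log2 fold change of -0.92 (SE 0.063, adjusted p = 2.85e-05 in edgeR), and was called lower with library totals and with the length trend removed, while on log2(FPKM + 1) its value was -0.023 (limma adjusted p = 0.800). The largest fall by size, Zm00001d012837, was less secure. It was at 20.5, 22.9 and 44.4 CPM in wild type and 16.8, 15.3 and 13.1 CPM in nacRNAi. Wild-type replicate 3 was well above the other wild-type libraries. Its log2 change was -0.96 (SE 0.31, adjusted p = 0.0489 in edgeR), and -0.52 without that replicate (adjusted p = 0.0161 in edgeR). The member with the most H2A counts, Zm00001d047787, was at 108, 134 and 155 CPM in wild type and 118, 80.8 and 74.7 CPM in nacRNAi, where nacRNAi replicate 1 lay among the wild-type values, and its log2 fold change was -0.54 (95% interval -1.05 to -0.02, adjusted p = 0.0829 in edgeR).

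Some H2A genes are described as variants, and of these few were detected. The most abundant of all H2A genes per length was the one described as a probable H2A.4 (Zm00001d006213, chromosome 2, 201970912 to 201971385), at 144 ± 41.3 FPKM in wild type against 163 ± 4.84 FPKM in nacRNAi (SD, n = 3). Its scaled counts were 102, 128 and 157 CPM in wild type and 81.7, 79.0 and 75.5 CPM in nacRNAi. The lines did not overlap, and its log2 fold change was -0.71 (SE 0.15, adjusted p = 0.00644 in edgeR), but 0.22 on log2(FPKM + 1) (limma adjusted p = 0.345). Of the 3 genes described as H2A.X, the form phosphorylated around DNA breaks, the gene described as probable H2AXa (Zm00001d033822) was tested and the others were at 0 in every library. It was at 4.10, 9.18 and 7.25 CPM in wild type and 3.72, 5.24 and 5.13 CPM in nacRNAi, with overlapping lines, and its log2 fold change was -0.54 (95% interval -1.24 to 0.16, adjusted p = 0.175 in edgeR). Of 8 genes described as an H2A variant with a number, 2 were tested, and both were close to the limit of detection. The gene Zm00001d007553 had 13, 19 and 7 counts in wild type and 45, 56 and 38 counts in nacRNAi, and its log2 fold change was 1.24 (95% interval 0.11 to 2.37, adjusted p = 0.0692 in edgeR), while with library totals it was called at 1.77 (adjusted p = 0.0125 in edgeR). The gene Zm00001d031574 had 11, 4 and 13 counts in wild type and 13, 10 and 8 counts in nacRNAi, for a log2 change of -0.44 (95% interval -1.86 to 0.99, adjusted p = 0.590 in edgeR).

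H2B, the partner of H2A, had 11 genes, of which 10 were tested. Of the 10 genes 6 fell (60%, beside 24% of all genes tested) and 4 did not pass. The median log2 change was -0.42, and 0.092 with library totals. The fall that held on all 4 scales was Zm00001d048491 (chromosome 9, 157090097 to 157090813), at 105, 172 and 127 CPM in wild type and 55.5, 53.0 and 48.0 CPM in nacRNAi. The highest nacRNAi value was far below the lowest of wild type, and it was wild-type replicate 2, not 3, that was highest. This gene fell 2.57-fold, with a log2 fold change of -1.36 (SE 0.18, adjusted p = 0.00126 in edgeR), and -0.47 on log2(FPKM + 1) (limma adjusted p = 0.0301). Its part of all H2B counts was 15.3% ± 3.77 in wild type against 8.58% ± 0.367 in nacRNAi (SD, n = 3).

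The gene named H2B.1 (Zm00001d020580) had the highest H2B level per length in wild type, 117 ± 16.1 FPKM in wild type against 142 ± 17.6 FPKM in nacRNAi (SD, n = 3). Its scaled counts were 146, 171 and 184 CPM in wild type and 99.9, 117 and 125 CPM in nacRNAi, with no overlap. The log2 fold change of H2B.1 was -0.55 (SE 0.11, adjusted p = 0.00481 in edgeR), but 0.28 on log2(FPKM + 1). The gene named H2B.2 (Zm00001d050100) was at 106, 124 and 183 CPM in wild type and 93.0, 81.8 and 76.0 CPM in nacRNAi. Wild-type replicate 3 was again the highest, and the lines did not overlap. For H2B.2 the log2 change was -0.72 (SE 0.21, adjusted p = 0.0313 in edgeR), and -0.46 without that replicate (adjusted p = 0.0149 in edgeR). It was called in only 2 of 6 fits that leave out a library. On the other scales H2B.2 was not called, at -0.21 with library totals, -0.41 with the length trend removed and 0.15 on log2(FPKM + 1). The other 3 H2B genes that fell were Zm00001d032070, Zm00001d047788 and Zm00001d025913, at -0.72, -0.49 and -0.32 (edgeR adjusted p at most 0.0229). On log2(FPKM + 1) they were at 0.12, 0.059 and 0.50, and Zm00001d025913 was called higher (adjusted p = 0.00332 in limma). This last gene was at 0.19 with library totals and -0.0093 with the length trend removed. Its lower call was kept in 3 of 6 fits that leave out a library.

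H3, whose tail carries many of the known histone marks, had 19 genes, of which 17 were tested. Of the 17 genes 8 fell (47.1%, beside 24% of all genes tested) and 9 did not pass. The median log2 change was -0.27, and 0.24 with library totals and -0.065 without wild-type replicate 3. The largest fall of any histone gene was in a minor member, Zm00001d016908 (chromosome 5, 179675631 to 179680148), at 4.75, 5.66 and 7.91 CPM in wild type and 0.928, 1.23 and 0.976 CPM in nacRNAi. The lines were far apart in every library. It fell 5.84-fold, with a log2 fold change of -2.55 (SE 0.24, adjusted p = 0.000130 in edgeR), and -2.04, -2.23 and -1.29 on the other scales. It supplied 0.373% of the H3 counts in wild type and 0.0963% in nacRNAi.

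The H3 gene with the highest level per length in wild type also fell on all 4 scales. This gene, Zm00001d029394 (chromosome 1, 68805980 to 68808399), was at 527, 514 and 546 CPM in wild type and 281, 263 and 274 CPM in nacRNAi. The values within each line lay within a narrow range, and wild-type replicate 3 was close to the others. The fall was 1.94-fold, with a log2 fold change of -0.96 (SE 0.059, adjusted p = 1.83e-05 in edgeR), and on log2(FPKM + 1) it was -0.24 (limma adjusted p = 0.0397), a call that was lost without the filter on low FPKM. The H3 gene next to it in counts, Zm00001d036036 (chromosome 6, 67784534 to 67785534), was at 374, 391 and 368 CPM in wild type and 199.9, 229 and 211 CPM in nacRNAi. The lines were again well apart. Its log2 fold change was -0.82 (SE 0.069, adjusted p = 6.91e-05 in edgeR), lower also with library totals and with the length trend removed, and -0.043 on log2(FPKM + 1) (limma adjusted p = 0.615). The third H3 gene in counts, Zm00001d045475, was at 209, 219 and 234 CPM in wild type and 201, 212 and 199 CPM in nacRNAi, with overlapping lines and a log2 fold change of -0.11 (95% interval -0.26 to 0.036, adjusted p = 0.184 in edgeR). On the other scales this gene was called higher, at 0.40 with library totals (adjusted p = 0.00269 in edgeR), 0.21 with the length trend removed (adjusted p = 0.0238 in edgeR) and 0.69 on log2(FPKM + 1) (adjusted p = 0.000588 in limma).

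The make-up of the H3 messengers differed between lines whatever the library scaling. The 2 genes with the most counts made up 60.0, 57.0 and 51.4% of all H3 counts in the wild-type libraries and 43.8, 44.2 and 46.6% across nacRNAi libraries. Their part was smaller in every nacRNAi library, and it was lowest in wild type in replicate 3. The means were 56.1% ± 4.33 and 44.9% ± 1.55 (SD, n = 3). The 10 genes described as H3.2 made up 15.4, 17.3 and 21.2% of H3 counts in wild type and 24.3, 22.4 and 20.3% in nacRNAi, where wild-type replicate 3 lay among the nacRNAi values.

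**Figure D4:**
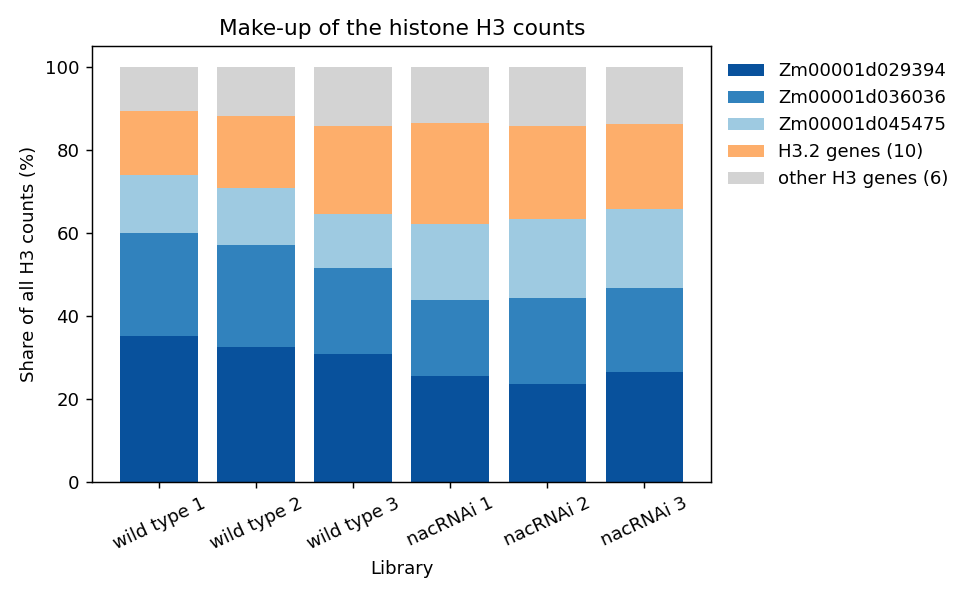
Each bar is a library and shows the share of all histone H3 counts (y axis, %) taken by the 3 H3 genes with the most counts (blue shades), the 10 H3.2 genes (orange) and the 6 other H3 genes (grey). The lower 2 segments together run from 51.4% to 60.0% in wild type and from 43.8% to 46.6% in nacRNAi.

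The tested H3.2 genes have models of 411 to 732 bases, and the untested Zm00001d025381 spans 1039. Short models also occur in other H3 genes, with 411 bases in Zm00001d016723 and Zm00001d036250 and 558 in Zm00001d042730. In Arabidopsis the genes of the replication-coupled H3 lack introns, and those of the replacement H3 hold them. Introns of the maize models were not examined here. Of the 8 tested H3.2 genes 3 fell (37.5%, beside 24% of all genes tested) and 5 did not pass. The median log2 change was -0.24, and 0.27 with library totals. The 3 that fell were Zm00001d039790, Zm00001d050697 and Zm00001d041672, with log2 fold changes of -0.76, -0.70 and -0.65 (adjusted p = 0.00491, 0.0230 and 0.00899 in edgeR). The most abundant H3.2 gene per length, Zm00001d012276, was at 106, 125 and 177 CPM in wild type and 119, 116 and 103 CPM in nacRNAi. Its lines overlapped, and its log2 fold change was -0.27 (95% interval -0.72 to 0.18, adjusted p = 0.283 in edgeR). The other 4 H3.2 genes that did not pass lay between -0.20 and -0.14, with 95% intervals reaching from -0.86 to 0.51. On log2(FPKM + 1) all 8 tested H3.2 genes lay above 0, and Zm00001d003730 was called higher, at 0.54 (adjusted p = 0.0337 in limma). The 3 that fell were at 0.31, 0.16 and 0.076 on that scale (adjusted p = 0.246, 0.612 and 0.769 in limma). With library totals the same 3 were at -0.25, -0.19 and -0.14 (adjusted p = 0.217, 0.462 and 0.487 in edgeR). In all 8 wild-type replicate 3 was the highest wild-type library. Among the H3 models spanning at most 1000 bases 4 of 11 fell, and among longer ones 4 of 6, where 24% of all genes tested did. With library totals 0 of 11 and 3 of 6 were lower, beside 9% of all genes. On log2(FPKM + 1) 0 of 11 and 2 of 6 were lower, beside 7.45%. A difference between short and long models was not tested.

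The centromeric H3 gene (Zm00001d038533, chromosome 6, 159380616 to 159390229) was at 26.3, 28.2 and 30.4 CPM in wild type and 30.3, 29.7 and 28.7 CPM in nacRNAi. The lines overlapped. Its log2 fold change was 0.063 (95% interval -0.11 to 0.24, adjusted p = 0.527 in edgeR), while with library totals it was 0.58 (adjusted p = 0.000707 in edgeR) and on log2(FPKM + 1) 0.74 (limma adjusted p = 0.000270). The gene described as H3-like 5 (Zm00001d036250) averaged 6.32 ± 1.74 CPM in wild type against 5.90 ± 0.677 CPM in nacRNAi (SD, n = 3), with a log2 fold change of -0.10 (95% interval -0.57 to 0.37, adjusted p = 0.715 in edgeR).

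H4, the partner of H3 and the most conserved of the core histones, had 17 genes, all described alike, of which 15 were tested. Of the 15 genes 4 fell (26.7%), 1 rose (6.67%) and 10 did not pass, where 24% of all genes tested fell and 23.2% rose. The share of falls was thus near that of all genes. The median log2 change was -0.33, and 0.18 with library totals. The rise, Zm00001d021422 (chromosome 7, 151786254 to 151786667), held on all 4 scales. It was at 37.5, 40.8 and 50.9 CPM in wild type and 74.0, 71.7 and 70.8 CPM in nacRNAi. The nacRNAi libraries were nearly level and all were above wild type, including replicate 3. The rise was 1.68-fold, with a log2 fold change of 0.74 (SE 0.11, adjusted p = 0.00107 in edgeR), and 1.71 on log2(FPKM + 1) (limma adjusted p = 8.89e-05). Its part of all H4 counts was 6.70% ± 0.540 in wild type against 13.2% ± 0.332 in nacRNAi (SD, n = 3).

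The H4 gene with the highest level per length in wild type, Zm00001d008669 (chromosome 8, 16558205 to 16558516), was at 111, 134 and 191 CPM in wild type and 98.4, 89.5 and 81.2 CPM in nacRNAi. The lines did not overlap, and wild-type replicate 3 was far above replicate 1. The log2 fold change was -0.70 (SE 0.20, adjusted p = 0.0308 in edgeR), with the opposite sign, 0.28, on log2(FPKM + 1), and it was called in 2 of 6 fits that leave out a library. The largest H4 fall was Zm00001d020584, at 21.5, 22.5 and 34.6 CPM in wild type and 13.8, 12.6 and 13.3 CPM in nacRNAi. It fell 1.98-fold, with a log2 fold change of -0.98 (SE 0.18, adjusted p = 0.00426 in edgeR), and -0.73 without wild-type replicate 3 (adjusted p = 0.00117 in edgeR). With the length trend removed this gene was called lower, at -0.65 (adjusted p = 0.0168 in edgeR). Its value was -0.48 with library totals (adjusted p = 0.0832 in edgeR) and -0.057 on log2(FPKM + 1) (limma adjusted p = 0.793). The other falls were Zm00001d042954 at -0.76 and Zm00001d002543 at -0.43 (adjusted p = 0.0244 and 0.0362 in edgeR). On log2(FPKM + 1) Zm00001d002543 was called higher, at 0.50 (adjusted p = 0.0493 in limma). The H4 gene Zm00001d039733, among the most abundant, was at 50.8, 73.2 and 62.7 CPM in wild type and 55.4, 70.6 and 71.1 CPM in nacRNAi, with overlapping lines and a log2 fold change of 0.079 (95% interval -0.29 to 0.45, adjusted p = 0.703 in edgeR). It was called higher at 0.60 with library totals (adjusted p = 0.00993 in edgeR) and 0.80 on log2(FPKM + 1) (adjusted p = 0.00259 in limma). Replicate 3 was the highest wild-type library in 14 of 15 H4 genes.

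Sums over a family do not depend on how reads were divided between near-identical copies, but they would lack any reads that the counting dropped. For the overlapping H3.2 genes described below, the FPKM sums hold values that the count sums nearly lack. All histone genes together summed to 3972, 4483 and 5312 CPM in wild type and 3373, 3328 and 3133 CPM in nacRNAi. Every nacRNAi library was below every wild-type library on this scale. As a share of all counts, however, histone genes took 0.330, 0.361 and 0.463% in wild type against 0.402, 0.394 and 0.380% in nacRNAi, so the lines overlapped. In FPKM the sums were 3628, 3999.9 and 5494 and 5716, 5429 and 5411, with wild-type replicate 3 among the nacRNAi values and the other wild-type libraries below them. By type, the CPM sums of H2A, H2B and H3 were lower in every nacRNAi library, whereas those of H1 and H4 overlapped. H3 summed to 1503, 1588 and 1778 CPM in wild type and 1098, 1113 and 1040.4 CPM in nacRNAi. H4 summed to 517, 613 and 823 CPM and 569, 549 and 520.1 CPM, and in FPKM it was the type that was higher in every nacRNAi library, at 1313, 1241 and 1271 against 625, 726 and 1093 in wild type.

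**Figure D5:**
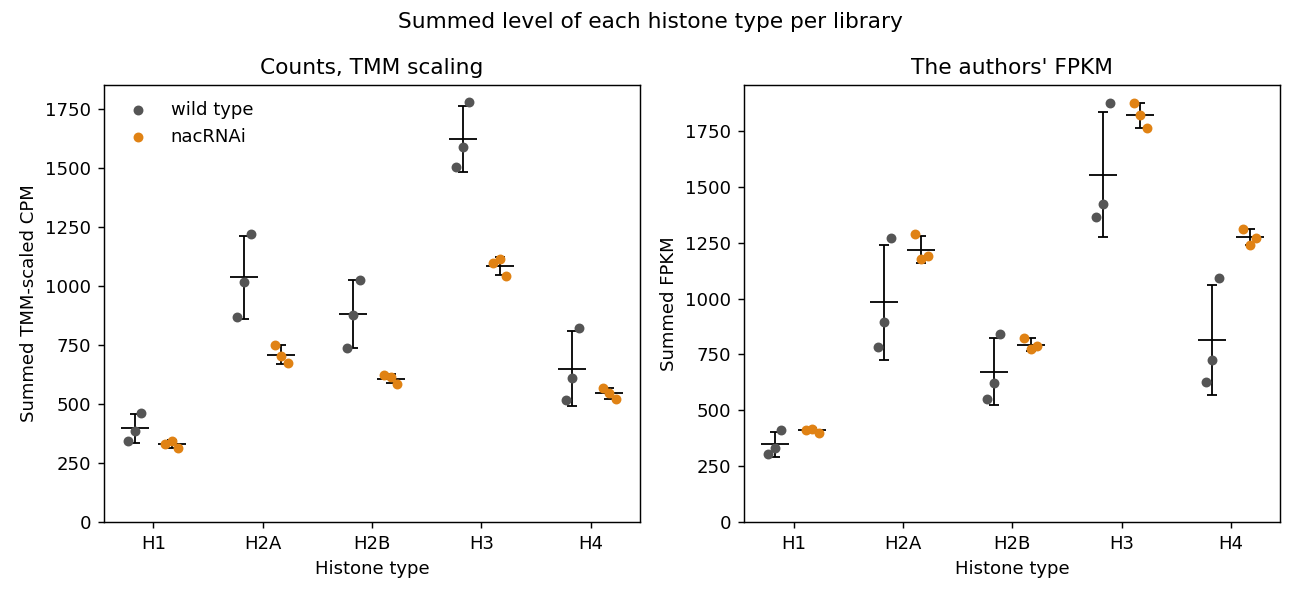
Points are libraries, with the summed level of each histone type in TMM-scaled CPM on the left and in the authors' FPKM on the right. Horizontal bars are means and error bars are SD (n = 3). On the left the H2A, H2B and H3 sums of nacRNAi lie below wild type, and on the right the nacRNAi means are the higher ones for all 5 types.

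Single histone genes are uncertain where copies are nearly identical, since the counting used is not given in the sources used here and could divide or drop reads that match several copies. Of the gene models, 10 H4 models spanned exactly 312 bases and 5 H3 models exactly 411 bases, lengths that leave room for the coding sequence only. Several members lie beside each other in the authors' coordinates, whose build is not named. The H2A genes Zm00001d021706 and Zm00001d021707 on chromosome 7 lie 1273 bases apart on the same strand. The first was at 31.2, 34.2 and 36.0 CPM in wild type and 20.4, 19.2 and 20.0 CPM in nacRNAi and the second at 28.9, 32.3 and 26.5 CPM in wild type and 34.7, 33.0 and 29.6 CPM in nacRNAi, so that the first was lower in each nacRNAi library and the second overlapped. Their log2 fold changes were -0.76 (adjusted p = 0.000178 in edgeR) and 0.15 (adjusted p = 0.236 in edgeR), and a difference between neighbours was not tested. The second was called higher on each of the other scales, at 0.67 with library totals (adjusted p = 0.000230 in edgeR), 0.47 with the length trend removed (adjusted p = 0.00392 in edgeR) and 0.93 on log2(FPKM + 1) (adjusted p = 9.31e-05 in limma). The H2A gene Zm00001d047787 and the H2B gene Zm00001d047788 on chromosome 9 lie 3315 bases apart on opposite strands, with log2 fold changes of -0.54 and -0.49. The H4 genes Zm00001d020584 and Zm00001d020585 lie 8055 bases apart, with -0.98 and -0.73.

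The 19 members that were not tested comprised 14 H2A, 1 H2B, 2 H3 and 2 H4 genes. Of these 8 were at 0 in every library, and the largest count of any in a library was 15. Counts and FPKM disagreed for the H3.2 genes Zm00001d025381 and Zm00001d025382 on chromosome 10, whose models share 489 bases. The first had 5, 0 and 2 counts in wild type and 5, 1 and 0 counts in nacRNAi, yet 22.2, 24.8 and 26.0 FPKM in wild type and 34.6, 26.1 and 24.7 FPKM in nacRNAi. The second had 0 counts throughout, yet 3.78, 1.17 and 14.4 FPKM in wild type and 16.0, 15.2 and 15.7 FPKM in nacRNAi. A cluster of 3 H2A genes on chromosome 6 was at 0 in wild-type replicate 3 alone. Its most abundant member, Zm00001d035619, had 52, 78 and 0 counts in wild type and 214, 139 and 102 counts in nacRNAi, and its FPKM was also listed at 0 there. In each library between 3 and 26 genes of all types were at 0 while the other 2 libraries of the line held at least 30 counts. The log2 fold change of this H2A gene, 1.20 (95% interval -1.52 to 3.92, adjusted p = 0.418 in edgeR), includes that library, and on log2(FPKM + 1) it was 1.82 (adjusted p = 0.0137 in limma).

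Genes that act with the histones gave other counts. On the TMM scale they are to be read against the same 23.2% higher and 24% lower of all genes. The shares of all genes were 21.6% higher and 22.6% lower with the length trend removed, and 50.5% and 9% with library totals. Of 20 tested genes for histone chaperones and assembly factors, which carry new histones to DNA, 7 rose and 3 fell, at a median log2 change of 0.20, and 0.12 with the length trend removed. The assembly factor gene Zm00001d008847 was at 65.3, 67.2 and 69.2 CPM in wild type and 93.9, 94.0 and 94.2 CPM in nacRNAi, for a log2 change of 0.48 (SE 0.054, adjusted p = 0.000263 in edgeR). The chaperone gene Zm00001d011130, described as nucleosome assembly protein 1 (second form), was at 33.1, 34.2 and 35.3 CPM in wild type and 19.3, 19.2 and 16.4 CPM in nacRNAi. Its log2 change was -0.90 (SE 0.087, adjusted p = 0.000130 in edgeR), and -0.39 with library totals (adjusted p = 0.00695 in edgeR). On log2(FPKM + 1) it was -0.075 (adjusted p = 0.497 in limma). Of 63 tested DNA replication genes, whose activity in S phase goes with histone supply, 18 rose and 5 fell, with a median of 0.17, and with the length trend removed 9 rose, 5 fell and the median was 0.015. Of 33 tested cell cycle genes 3 rose and 11 fell, with a median of -0.16 that was 0.37 with library totals. Of 73 tested histone-modifying enzyme genes 22 rose and 10 fell, with a median of 0.078 that was -0.00468 with the length trend removed, where 16 were higher and 13 lower. With library totals 44 were higher and 1 lower. Of 39 tested chromatin remodelling genes 13 rose and 4 fell, with a median of 0.17, and 0.11 with the length trend removed. In that list the gene of high mobility group B protein 2, a DNA-bending chromatin protein (Zm00001d006306), was at 234, 241 and 201 CPM in wild type and 35.9, 58.4 and 63.0 CPM in nacRNAi, for a log2 change of -2.10 (SE 0.22, adjusted p = 0.000604 in edgeR).

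Markers of other kernel parts were read beside these values, since other tissues could carry dividing cells. Of all genes 24% were lower and 23.2% higher on the TMM scale, and 9% and 50.5% with library totals. On log2(FPKM + 1) these shares were 7.45% lower and 63.5% higher. Genes for oil-body, late embryogenesis abundant and globulin proteins, which mark embryo and aleurone, summed to 2431 to 2607 CPM in wild type and 1470.2 to 1807 CPM in nacRNAi. Of 42 tested 25 fell and 3 rose, while on log2(FPKM + 1) 6 were lower and 10 higher, and 48 of the 109 listed were at 0 in every library. Genes described by the aleurone itself summed to 118 to 136 CPM and 102 to 109 CPM, with 2 of 3 lower, while with library totals 3 of 3 were higher. Genes of chlorophyll-binding and photosystem proteins, which mark green outer tissue, summed to 107 to 118 CPM and 92.3 to 103 CPM, with 10 of 27 lower and 4 higher, while with library totals 7 were lower and 9 higher. Transfer layer genes summed to 1.04 to 11.4 CPM and 0.600 to 11.0 CPM, and genes of the embryo surrounding region to 0.0208 to 0.226 CPM and 0 to 1.66 CPM. These markers moved between lines in part, and their part in the histone values was not tested.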

How the data were processed

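Expression was measured by RNA-seq in 6 endosperm libraries, 3 of wild type and 3 of nacRNAi. Per the labels' protocols, RNA was taken up in TRIzol, cleaned on RNeasy columns with DNase treatment and made into libraries with a Truseq mRNA kit. The authors deposited read counts per gene and, in a second table, FPKM values per gene, both with gene descriptions and coordinates. The aligner, the counting program, the use of strand and the genome build were not given in the sources used here. All columns of values were matched to libraries by name, so that 0 were left over.

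The histone genes and all other lists were chosen from gene descriptions with earlier results of these data known, and Glutelin-2 was counted as a zein. The identities of NAC128 and NAC130 come from knowledge of the study. Counts were tested with edgeR 4.0.16 in R 4.3.3, using filterByExpr (minimum count 10), TMM factors and the robust quasi-likelihood test, with line as the only term and Benjamini-Hochberg adjustment over all genes tested. The threshold was an adjusted p of 0.05. Standard errors are approximate, being the size of the log2 fold change over the square root of the F statistic, and the 95% intervals follow from them. The deposited FPKM values were tested with limma 3.58.1 on log2(FPKM + 1), for genes with at least 0.5 FPKM in 3 libraries, and fold changes on that scale understate low genes. The length trend was removed through offsets, from a curve fitted to log2 CPM over the ratio of count to FPKM in each library by loess with a span of 0.3. The procedure was run on simulated counts built from the wild-type means, with neither a length trend nor a fall of zein counts built in. That run did not test how the scales differ in these data.

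Named genes were, in each type, the 2 with the highest CPM, the 2 genes that rose most and the 2 that fell most among called genes whose lines did not overlap, and every tested member whose description names a variant, which gave 33 genes. In the other chromatin lists genes were eligible if they had 1 of the 2 smallest adjusted p in a direction, and 3 of these are given. Other members appear for their H1 description, their calls, their counts, their neighbours or their zeros, and were chosen after their values were seen. Alternatives were library totals, DESeq2 1.42.0 (its size factors and its Wald test), TMM factors without zein genes, other filters and thresholds, FPKM with a pseudocount of 0.1 or with no filter, a replicate block, and each library left out in turn. Tables and figures were made with Python 3.11.15, numpy 2.4.6, pandas 2.3.3 and matplotlib 3.10.9.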

Additional observations from a re-analysis of the deposited data

How the results depend on the processing

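Scaling, thresholds and the left-out library all moved the counts. Library totals gave 14 higher and 7 lower histone genes in place of 4 and 28, and among all genes 11234 higher and 2004 lower in place of 5171 and 5348. On log2(FPKM + 1) the histone counts were 23 higher and 3 lower, and the same with a pseudocount of 0.1, and without the filter they were 20 and 2. Among all genes these gave 11874 higher and 1392 lower, 11844 and 1384, and 12567 and 1529. With the length trend removed 7 histone genes were higher and 13 lower. A 2-fold minimum left 2 and 2 (all genes 1937 and 1989), and an adjusted p under 0.01 left 2 and 18 (all genes 3296 and 3696). The median of the histone genes, -0.44, was 0.065 with totals, 0.41, 0.44 and 0.38 on FPKM with pseudocounts of 1, of 0.1 and without the filter, and -0.11 with the length trend removed. The log2 ratio of the histone share of counts, 0.03, was -0.26 outside the zein genes and 0.56 in summed FPKM.

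By type, the genes changed in either direction were 3 for H1, and 1 with the length trend removed, 0 past 2-fold and 1 under 0.01. For H2A they were 10, and 6 on each FPKM setting and 2 past 2-fold. For H2B they were 6, and 2 with totals, 3 on unfiltered FPKM, 2 with the length trend removed, 1 past 2-fold and 3 under 0.01. For H3 they were 8, and 5 with totals, 4 on unfiltered FPKM and 1 past 2-fold. For H4 they were 5, and 8 with the DESeq2 Wald test, 8 on FPKM with either pseudocount, 0 past 2-fold and 2 under 0.01. The replicate block lowered the higher calls from 4 to 2, the lower calls from 28 to 22, where 20.4% and 21.3% of all genes were called, and the H4 calls from 5 to 3. Over all genes tested, deviations of same-numbered libraries from the mean of their line correlated at 0.01, -0.05 and -0.10. The labels do not say what a replicate number marks, and whether same-numbered libraries shared a batch was not tested.

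Leaving out each library in turn gave 2 to 7 higher and 20 to 35 lower histone genes, 1 to 3 H1, 8 to 13 H2A, 3 to 6 H2B, 7 to 8 H3 and 2 to 8 H4 genes, and 4076 to 4792 higher and 4449 to 4922 lower among all genes. The histone median then ran from -0.49 without wild-type replicate 1 to -0.22 without wild-type replicate 3, and the share ratio from -0.07 to 0.18. Of the lower calls 19 of 28, and of the higher calls 2 of 4, held in all 6 such fits. By type these lower calls were 1 of 2 for H1, 7 of 8 for H2A, 3 of 6 for H2B, 7 of 8 for H3 and 1 of 4 for H4. The share over all called genes is not given here, so this stability has no background to be read against.

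Values under the alternatives were computed for the 33 genes of the naming rule and 14 others given with a value. The H2B genes Zm00001d025913 and Zm00001d032070 were not among them. Of these 47 genes 29 turned sign under at least 1 alternative, whether or not they were called. On log2(FPKM + 1) the sign turned for 26 genes, each negative with TMM, with 0.50 for Zm00001d002543, 0.13 for H1-3, 0.65 for Zm00001d003725, 0.54 for Zm00001d003730, 0.22 for Zm00001d006213, 0.28 for Zm00001d008669, 0.38 for Zm00001d012276, 0.14 for Zm00001d012837, 0.24 for Zm00001d013066, 0.18 for Zm00001d013067, 0.28 for Zm00001d020580, 0.11 for Zm00001d020585, 0.088 for Zm00001d021706, 0.67 for Zm00001d025406, 0.38 for Zm00001d033822, 0.54 for Zm00001d036250, 0.31 for Zm00001d039790, 0.54 for NAC128, 0.076 for Zm00001d041672, 0.38 for Zm00001d042954, 0.48 for Zm00001d045268, 0.69 for Zm00001d045475, 0.29 for Zm00001d047787, 0.059 for Zm00001d047788, 0.15 for Zm00001d050100 and 0.16 for Zm00001d050697. The unfiltered values were the same, and with a pseudocount of 0.1 those that differed were 0.51 for Zm00001d002543, 0.67 for Zm00001d003725, 0.55 for Zm00001d003730, 0.39 for Zm00001d012276, 0.15 for Zm00001d012837, 0.28 for Zm00001d013066, 0.12 for Zm00001d020585, 0.090 for Zm00001d021706, 0.69 for Zm00001d025406, 0.44 for Zm00001d033822, 0.58 for Zm00001d036250, 0.32 for Zm00001d039790, 0.55 for NAC128, 0.084 for Zm00001d041672, 0.40 for Zm00001d042954, 0.061 for Zm00001d047788 and 0.17 for Zm00001d050697. With library totals 12 genes turned sign, with 0.080 for Zm00001d002543, 0.065 for H1-3, 0.31 for Zm00001d003725, 0.37 for Zm00001d003730, 0.24 for Zm00001d012276, 0.33 for Zm00001d025406, 0.058 for Zm00001d031574, 0.41 for Zm00001d036250, 0.35 for NAC128, 0.31 for Zm00001d045268, 0.40 for Zm00001d045475 and 0.025 for Zm00001d047788. With the length trend removed 8 did, with 0.15 for Zm00001d003725, 0.20 for Zm00001d003730, -0.013 for Zm00001d011252, 0.072 for Zm00001d012276, 0.17 for Zm00001d025406, 0.23 for Zm00001d036250, 0.12 for Zm00001d045268 and 0.21 for Zm00001d045475. Leaving out a library in turn changed a sign in 6 genes, which ran from -0.35 to 0.17 for Zm00001d003725, -0.25 to 0.070 for Zm00001d003730, -0.034 to 0.077 for Zm00001d011252, -0.35 to 0.19 for Zm00001d025406, -0.23 to 0.15 for Zm00001d036250 and -0.045 to 0.21 for Zm00001d039733. Over these genes and all alternatives with a value, 569 values kept direction and side of the threshold, 82 lost the call, 29 gained one and 106 turned sign, 13 of them past the threshold. The cause of these changes was not tested. Depth limits the genes near 0 counts, and reads shared between near-identical copies limit any single gene.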
